A study of Homo sapiens with 6 samples.

Results

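Glycolysis converts glucose to pyruvate in the cytosol and yields ATP without oxygen. Glucose enters through facilitative carriers such as GLUT1, is trapped by hexokinase, committed at phosphofructokinase, and ends as pyruvate, which lactate dehydrogenase can reduce to lactate. Proliferating leukaemia cells typically keep this route active, and many of its genes are known targets of the hypoxia-inducible factor HIF-1 and of MYC. In human erythroid cells GLUT1 is also an abundant membrane protein.

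The genes described are SLC2A1, which encodes GLUT1, and 9 enzymes of glycolysis, HK2, GPI, PFKP, ALDOA, GAPDH, PGK1, ENO1, PKM and LDHA. They were chosen by gene symbol in the platform annotation, and all 10 were found, each with 1 of the 21448 probe sets. Expression came from single-colour arrays of K562, an established erythroleukaemia cell line. A control vector was present in the cells of 3 arrays and a miR-543 vector, labelled as overexpressing that microRNA, in those of the other 3, so both groups carried a vector. The vector type, its promoter, the time after delivery and whether lines were clones are not given in the sources used here, and 0 probe sets carried the name MIR543. Nothing in the labels ties the replicates to separate cultures. The p-values therefore reflect sample-to-sample spread that could be technical.

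The molecule that distinguishes the groups is a microRNA of chromosome 14 (GRCh38.p14, chr14:101032033-101032054, plus strand). It is shown with its seed, bases 2 to 8, in capitals, because a microRNA recognises mRNAs mainly through that stretch.

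hsa-miR-543: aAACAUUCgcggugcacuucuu

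All values are log2 signals, so 1 unit is a doubling. Array medians lay between 5.99 and 6.01, upper quartiles between 9.61 and 9.66, and maxima between 17.8 and 17.9. Both group means of 9 of the 10 genes were above every upper quartile, HK2 being the exception. Some erythroid markers had high signals. GATA1, the master regulator of erythroid and megakaryocytic genes, had a control mean of 15.7. Embryonic globin HBE1 had one of 15.7 and the transferrin receptor TFRC one of 15.0. Other erythroid markers were far lower, such as KLF1 at 6.8 and EPOR at 6.3. The monocyte and granulocyte marker LYZ had a control mean of 15.2, so high signals of single markers do not establish the lineage. Of 18 erythroid markers 14 were measured, and 2 of these (SLC4A1 and EPB42) lay below the array medians. In bulk samples fewer cells of a type and less RNA per cell cannot be told apart.

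SLC2A1 had the largest log2 change of the 10 genes. It lay at 11.99, 12.08 and 12.23 with the control vector and at 12.52, 12.60 and 12.81 with the miR-543 vector. All 3 miR-543 arrays were above all 3 control arrays, and the difference of the means was over 3 times the SD within either group. The means were 12.1 ± 0.12 and 12.6 ± 0.15 (SD, n = 3). The log2 change was therefore 0.54 (SE 0.15), and its 95% interval ran from 0.22 to 0.87. On the linear scale this was 146% of the control vector's level (interval 116% to 182%). The unadjusted limma p was 0.00375, rank 395 of all probe sets, and the adjusted p was 0.204, so SLC2A1 did not pass the threshold of 0.05 after Benjamini-Hochberg adjustment over all probe sets. A two-sided exact permutation test gave 0.1, which is the lowest p reachable with this number of arrays. When limma's variance prior was allowed to follow signal level and to be robust to outliers, the estimate was the same, its SE was 0.12 and its adjusted p was 0.0307. That setting called 1.17% of all probe sets.

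**Figure D1:**
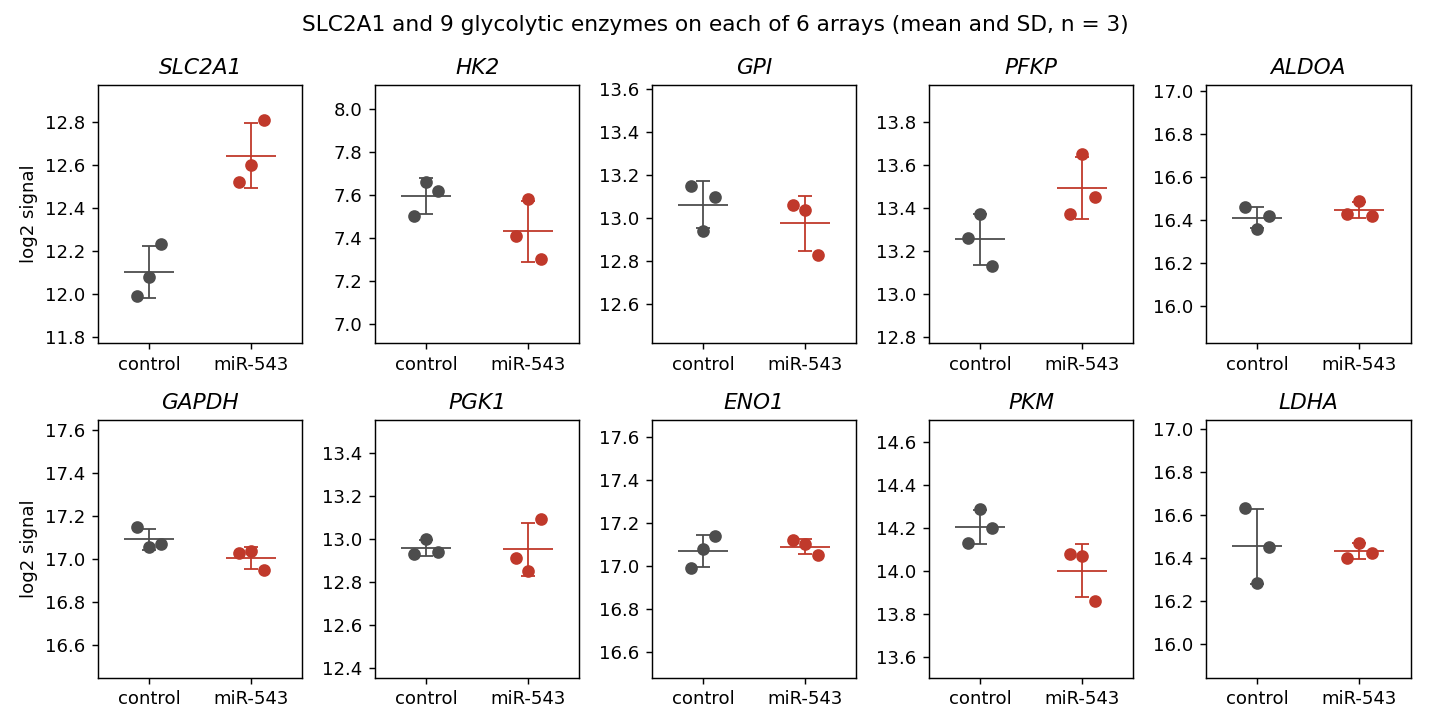
Log2 signal of each of the 10 genes (y axis, with the same span in every panel) on the 3 control arrays (grey) and the 3 miR-543 arrays (red), with mean and SD (bars, n = 3). SLC2A1 shows the widest gap, from 12.1 to 12.6, while the groups of ALDOA, PGK1, ENO1 and LDHA overlap.

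Of the 10 genes 0 were called at an adjusted p under 0.05, against 0.569% of all probe sets. At an unadjusted p under 0.05 there was 1 of 10, SLC2A1, beside 10.6% of all probe sets. The arrays of the groups did not overlap for 3 of 10 genes, beside 15.4% of all probe sets. Of these SLC2A1 was higher with the miR-543 vector, as were 7.89% of all probe sets, and GAPDH and PKM were lower, as were 7.5%. The median log2 change was -0.015 over the 10 genes, with 4 above 0 and 6 below, and 0.01 over all probe sets. The 9 enzymes ranged from -0.20 to 0.24, and their adjusted p-values were 0.62 or higher. For all 10 genes the 95% interval excluded both a doubling and a halving, and for 7 of the 9 enzymes it lay within 0.5 of 0 in either direction. The median residual SD of the 10 genes was 0.11 against 0.20 for all probe sets. These sets were not matched for signal, since 10726 of the 21448 probe sets but 0 of the 10 genes had a mean below the array medians.

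The first steps prepare glucose for cleavage. HK2, the inducible hexokinase that binds mitochondria, lay at 7.50, 7.66 and 7.62 with the control vector and 7.41, 7.58 and 7.30 with the miR-543 vector. Its groups overlapped, with a log2 change of -0.16 (95% interval -0.48 to 0.15). The isomerase GPI, which turns glucose 6-phosphate into fructose 6-phosphate, lay at 13.15, 12.94 and 13.10 and then at 13.06, 13.04 and 12.83. Again the arrays were interleaved (log2 change -0.09, 95% interval -0.40 to 0.23). PFKP, the platelet-type phosphofructokinase of the committing step, read 13.26, 13.37 and 13.13 and then 13.37, 13.65 and 13.45. Its highest control array equalled its lowest miR-543 array. The log2 change of PFKP was 0.24 with a 95% interval of -0.09 to 0.56 (adjusted p = 0.62 in the limma fit). ALDOA, which splits fructose 1,6-bisphosphate, read 16.46, 16.36 and 16.42 and then 16.43, 16.49 and 16.42, a log2 change of 0.03 (95% interval -0.26 to 0.32).

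The later steps harvest ATP and NADH. GAPDH, which oxidises glyceraldehyde 3-phosphate and often serves as a reference gene, read 17.15, 17.06 and 17.07 and then 17.03, 17.04 and 16.95. The miR-543 arrays were all lower, with a log2 change of -0.09 (95% interval -0.38 to 0.20, adjusted p = 0.874 in the limma fit). PGK1, the first enzyme of the route to make ATP, read 12.93, 13.00 and 12.94 and then 12.91, 12.85 and 13.09. The miR-543 arrays of PGK1 lay on both sides of the control arrays, and its log2 change of -0.0067 (95% interval -0.31 to 0.30) was 0.045 after a further quantile normalization of the arrays. The enolase ENO1 read 16.99, 17.08 and 17.14 and then 17.12, 17.10 and 17.05, with overlapping groups and a log2 change of 0.02 (95% interval -0.27 to 0.31).

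Pyruvate kinase and lactate dehydrogenase close the pathway. PKM, whose splice forms PKM1 and PKM2 were not separated by its single probe set, read 14.13, 14.29 and 14.20 with the control vector and 14.08, 14.07 and 13.86 with the miR-543 vector. All 3 miR-543 arrays were lower, the log2 change was -0.20 (95% interval -0.51 to 0.10), and the adjusted p was 0.67 in the limma fit. LDHA, the subunit that favours lactate formation, read 16.63, 16.28 and 16.45 and then 16.40, 16.47 and 16.42. The miR-543 arrays of LDHA lay inside the control range (log2 change -0.02, 95% interval -0.34 to 0.30). Both group means of 4 genes (ALDOA, GAPDH, ENO1 and LDHA) were above the 99th percentile of every array, 15.4 to 15.5, where array signals can compress and understate a change. GAPDH, PGK1, ENO1, PKM and LDHA have processed pseudogenes or close paralogs that probes may share.

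**Figure D2:**
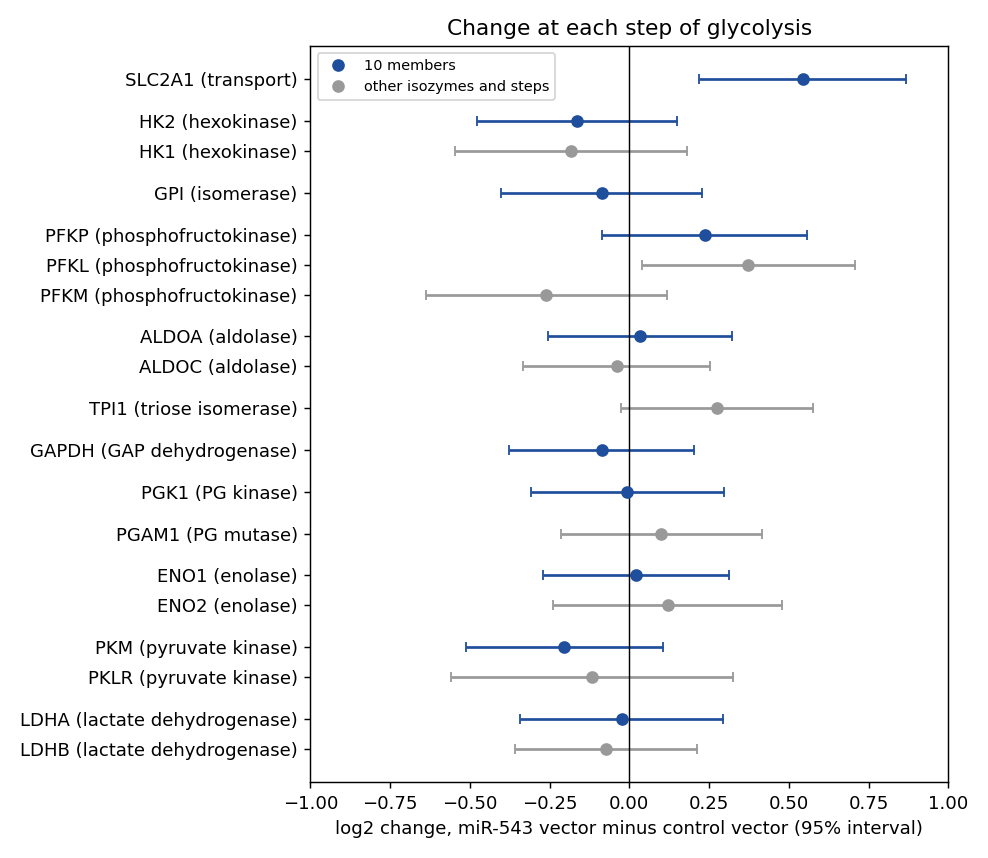
Log2 change with the miR-543 vector (x axis, point, with 95% interval as the bar) for the 10 genes (blue) and for other isozymes and steps (grey), in pathway order. In the reported fit the intervals of SLC2A1 (0.22 to 0.87) and PFKL (0.04 to 0.71) lie above 0, and the intervals of the 9 enzymes among the 10 genes include 0.

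Other isozymes and the remaining steps were taken from a list of 22 genes, 20 of them measured. Of these 0 were called, 2 had an unadjusted p under 0.05, 11 lay above 0 and 9 below, and the median log2 change was 0.01. The mean signal of 10 of the 20 lay below the array medians. PFKL, the liver-type phosphofructokinase, read 11.49, 11.39 and 11.71 and then 11.74, 12.01 and 11.96. Its miR-543 arrays were all higher, with a log2 change of 0.37 (95% interval 0.04 to 0.71, adjusted p = 0.417 in the limma fit). The muscle-type PFKM had a log2 change of -0.26 (95% interval -0.64 to 0.12). The triose phosphate isomerase TPI1, which interconverts the products of aldolase, was higher on all 3 miR-543 arrays at a log2 change of 0.27 (adjusted p = 0.524 in the limma fit). The muscle enolase ENO3 had a log2 change of -0.82 (adjusted p = 0.129 in the limma fit) at group means of 5.12 and 4.31, both below the array medians. The hexokinase HK3 had a log2 change of 0.32 (adjusted p = 0.527 in the limma fit), also at a low control mean of 4.54.

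HK1, ALDOC, ENO2, PKLR, LDHB, PGAM1 and BPGM had log2 changes between -0.18 and 0.12. HK1, the constitutive hexokinase, had a log2 change of -0.18, close to the -0.16 of HK2. ALDOC had a log2 change of -0.04 (0.0097 after quantile normalization), and the red cell pyruvate kinase PKLR one of -0.12. ENO2 had one of 0.12 at group means of 5.24 and 5.36, below the array medians. LDHB, the subunit that favours pyruvate formation, had a log2 change of -0.07, and its 3 miR-543 arrays lay below the control arrays, at 15.87 ± 0.021 and 15.79 ± 0.012 (SD, n = 3). The phosphoglycerate mutase PGAM1 had a log2 change of 0.10. BPGM, which makes the red cell effector 2,3-bisphosphoglycerate, had one of -0.16. None of these genes had an unadjusted p under 0.05.

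Other carriers of sugars and lactate came next. Of 18 glucose and lactate transport genes 16 were measured, with 0 called and a median of -0.02, and as many lay above 0 as below (8 each). The mean signal of 12 of these 16 lay below the array medians. The lactate carrier genes SLC16A1 and SLC16A3 were not measured, and SLC16A7 and SLC16A8 had low control means of 3.17 and 3.46. SLC2A3, the neuronal-type carrier GLUT3, averaged 14.77 and 14.79, a log2 change of 0.01, and the near-identical SLC2A14 had one of -0.11, with the caution that their probes may read both. SLC2A13, a carrier of myo-inositol, was lower on all 3 miR-543 arrays (7.72, 7.87 and 7.75 against 7.28, 7.03 and 7.29). Its log2 change was -0.58 and its adjusted p was 0.156 in the limma fit. SLC2A12 and the fructose carrier SLC2A5 had log2 changes of -0.66 and -0.78 (adjusted p = 0.263 and 0.442 in the limma fit), and SLC2A2 had one of 0.33, all at group means below the array medians. BSG, the chaperone of lactate carriers, had a log2 change of 0.08.

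Regulators of flux and of pyruvate entry into mitochondria gave no call either. Of 32 such genes 30 were measured, with a median of -0.04 (12 above 0, 17 below and PDHX, 1 gene, at 0), and 4 had an unadjusted p under 0.05. PDK2, a kinase that switches off pyruvate dehydrogenase, read 6.28, 6.23 and 6.38 and then 7.09, 6.75 and 6.63. The miR-543 arrays of PDK2 were all higher (log2 change 0.53, adjusted p = 0.263 in the limma fit), and PDK1 had a log2 change of -0.02. PDK3 had one of -0.35 at group means of 4.85 and 4.50, below the array medians. MLX, the partner of the glucose-sensing factors MLXIP and MLXIPL, read 10.80, 10.79 and 10.73 and then 10.42, 10.22 and 10.32. All 3 miR-543 arrays of MLX were lower, with a log2 change of -0.45 (adjusted p = 0.26 in the limma fit). TXNIP, a target of these factors that restrains glucose uptake by GLUT1, had a log2 change of 0.07. PRKAA1, a catalytic subunit of the energy sensor AMPK, had one of -0.33. HIF1A, its partner ARNT and MYC had log2 changes of -0.18, 0.01 and 0.08.

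Branches off glycolysis and hypoxia-response genes outside its enzymatic steps stayed without calls. The hypoxia list shares the measured genes PFKFB3 and PDK1 with the list of regulators. Of 24 branch and gluconeogenic genes 23 were measured, and their median was -0.02 (10 above 0, 13 below). Pyruvate carboxylase PC had a log2 change of -0.36 at low signal (4.49 and 4.13). FBP2 had one of -0.35, also at low signal (3.59 and 3.24). UGP2, which makes UDP-glucose, had one of -0.28, and PSPH one of -0.25. Of 24 hypoxia-response genes 21 were measured, of which 10 lay above 0, 11 lay below and 0 had an unadjusted p under 0.05 (median -0.02). That split turned to 15 above and 6 below without miR-543 replicate 3, and to 13 and 8 without control replicate 2. It was 12 and 9 without control replicate 1 or after quantile normalization, and 11 and 10 without miR-543 replicate 1. The 50th percentile filter left 16 of these genes, 9 above and 7 below. The 4 with the smallest p, all without a call, were MXI1 (log2 change 0.29), ANKRD37 (0.30), INSIG2 (0.18) and ADM (0.28). The log2 change of ADM was 0.03 without control replicate 2, and its group means of 5.21 and 5.49 lay below the array medians. VEGFA and BNIP3, classic HIF targets, had log2 changes of -0.08 and -0.02. The medians of the 5 pathway lists ranged from -0.10 to 0.07 over all settings run, and 4 of the 5 took both signs. Over the 5 lists together 108 distinct genes were measured, the groups did not overlap for 16 (14.8%, beside 15.4% of all probe sets), and 10 had an unadjusted p under 0.05 (9.26%, beside 10.6%).

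**Figure D3:**
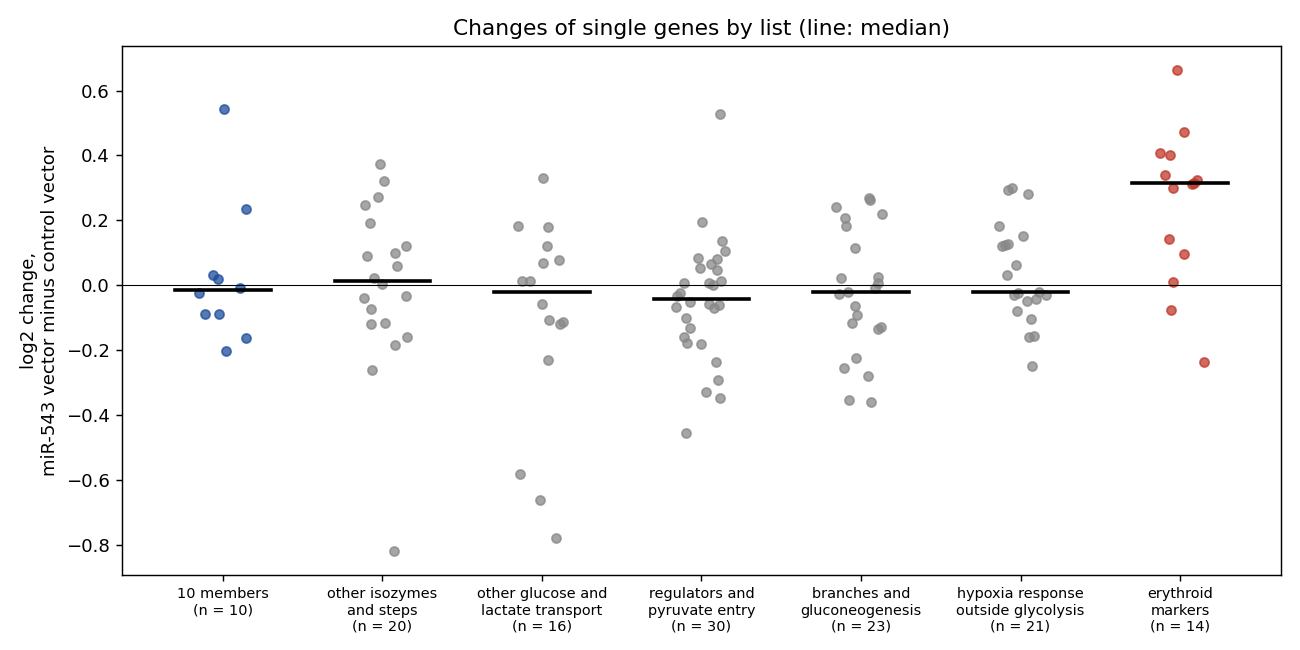
Log2 change of single genes (points; y axis, miR-543 vector minus control vector) in the 10 genes, the 5 pathway lists and the erythroid markers, with the median as a line. The 10 genes and the pathway lists have medians between -0.04 and 0.01, and the erythroid markers have a median of 0.315.

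Most erythroid markers had a log2 change above 0. Of the 14 measured, 12 had a log2 change above 0 and 2 below, and the median was 0.315 against 0.01 over all probe sets. Over all probe sets 11217 of 21448 lay above 0. The split of the markers was 10 and 4 without control replicate 1, and 13 and 1 without control replicate 3. The 3 miR-543 arrays were above the 3 control arrays for 7 (50%, beside 7.89% of all probe sets). These 7 include SLC4A1, which lay below the array medians, and the alpha globins HBA1 and HBA2. HBA1 and HBA2 had log2 changes of 0.31 and 0.30 at control means of 15.7 each. Their probes may read both genes, so these 2 entries may hold 1 signal. An unadjusted p under 0.05 was found for 5 of the 14 markers (35.7%, beside 10.6%), SLC4A1 among them, and 0 of the 14 were called. The log2 signals of the 14 markers summed to 152 to 155 on the control arrays and 156 to 157 on the miR-543 arrays. Such a sum is not an amount of RNA, and it counts HBA1 and HBA2 separately. The same sums overlapped between the groups for the 5 pathway lists and the other marker lists. None of these sums was tested. KLF1, an erythroid transcription factor, had a log2 change of 0.66 and ALAS2, the first enzyme of erythroid heme synthesis, one of 0.40 (adjusted p = 0.106 and 0.385 in the limma fit), while GATA1 and TFRC had log2 changes of 0.01 and -0.08. Among the miR-543 arrays SLC2A1 was highest on replicate 3 (12.81), where the mean of the 14 markers was lowest (11.15). On the control arrays both rose from replicate 1 to replicate 3. The part of the erythroid markers in the SLC2A1 difference was not tested. Markers of other cells were also measured. Of 7 lymphoid markers 4, of 6 monocyte and granulocyte markers 4, and of 10 epithelial and fibroblast markers 7 lay below the array medians, with median log2 changes of 0, 0.07 and 0.15. Each of these 3 medians turned on single arrays, to 0.15 for the lymphoid markers without miR-543 replicate 3, and to -0.04 and -0.02 for the other two without control replicate 2. The markers that were high were high in both groups, such as EPCAM (13.7 and 13.4), KRT19 (12.6 and 12.5) and LYZ (15.2 and 15.2). CD3D had a log2 change of 0.64 (adjusted p = 0.184 in the limma fit). No marker can be read as 0 on this log2 scale.

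Genes with a profile most like that of SLC2A1 were sought by the root mean square difference of log2 values over the 6 arrays, each gene centred on its own mean. The nearest were FNDC4 (0.045), MDN1 (0.052), OSBPL7 (0.059), CFI (0.066) and S100A16 (0.068), with log2 changes of 0.49 to 0.56 and 0 called. The distances of the 9 enzymes ran from 0.23 for PFKP to 0.41 for PKM. Any gene outside the nearest 5 must lie farther off, and choosing by distance fixes that the neighbours change like SLC2A1. These distances are descriptions over 6 arrays chosen from all named probe sets.

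**Figure D4:**
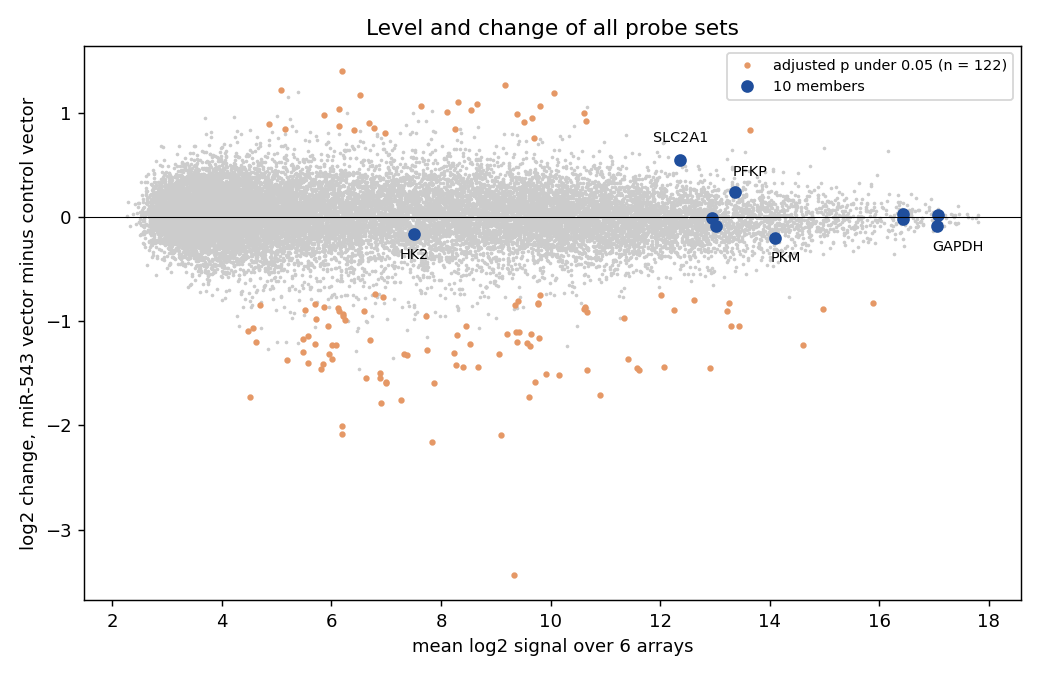
Mean log2 signal over 6 arrays (x axis) against log2 change (y axis) for all 21448 probe sets (grey), the 122 called at an adjusted p under 0.05 (orange) and the 10 genes (blue). SLC2A1 sits at the upper edge of the 10 genes at 0.54, and none of the 10 is among the called probe sets.

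The promoter of SLC2A1 is shown because that gene carried the largest difference. It comprises the 250 bases before the start listed by RefSeq (GRCh38.p14, chr1:42958869-42959118, minus strand, written 5′ to 3′), and the capitals mark 2 matches of the GC box GGGCGG, both on the opposite strand.

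SLC2A1: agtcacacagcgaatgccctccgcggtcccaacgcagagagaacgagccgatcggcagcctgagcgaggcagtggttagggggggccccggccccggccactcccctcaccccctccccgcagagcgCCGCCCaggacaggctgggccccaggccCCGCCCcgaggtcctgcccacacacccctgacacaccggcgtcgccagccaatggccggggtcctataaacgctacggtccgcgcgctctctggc

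LDHA is shown as an example of a promoter with several copies of ACGTG, the core of hypoxia response elements. Its signal did not separate the groups. Both traits were known when it was chosen, so the pair cannot relate the motif to the change, and no such link was tested. The 3 stretches lie 185, 87 and 73 bases before its first listed start (chr11:18394368-18394393, chr11:18394466-18394491 and chr11:18394480-18394504, plus strand), with the match in capitals. The first 2 are full CACGTG E-boxes, which contain ACGTG on both strands.

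LDHA 185: actcccagcgCACGTGgagcagtctg
LDHA 87: gcccgactcaCACGTGggttcccgca
LDHA 73: tgggttcccgCACGTccgccggccc

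RefSeq listed 17 promoter windows of 300 bases (250 before and 50 after a start) for the 10 genes, all 10 matched by symbol. Searched on both strands, ACGTG was in 10 of the 17 windows (58.8%) and in 21.4% of all 35116 windows, and 7 genes had it in at least 1 window. The window of SLC2A1 and those of ENO1 and PKM (log2 changes of 0.02 and -0.20) held no ACGTG. The E-box CACGTG, each copy of which also counts as ACGTG, was in 4 of 17 windows (23.5%, against 7.26% of all), and GGGCGG was in 11 of 17 (64.7%, against 45% of all). The erythroid-factor site AGATAA was in 0 of 17 (10.3% of all), and CCACACCC, a KLF1-type site, was in 1 of 17 (5.88%, against 3.28% of all), that of PGK1. These are matches of letters in short windows and not measured binding.

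**Figure D5:**
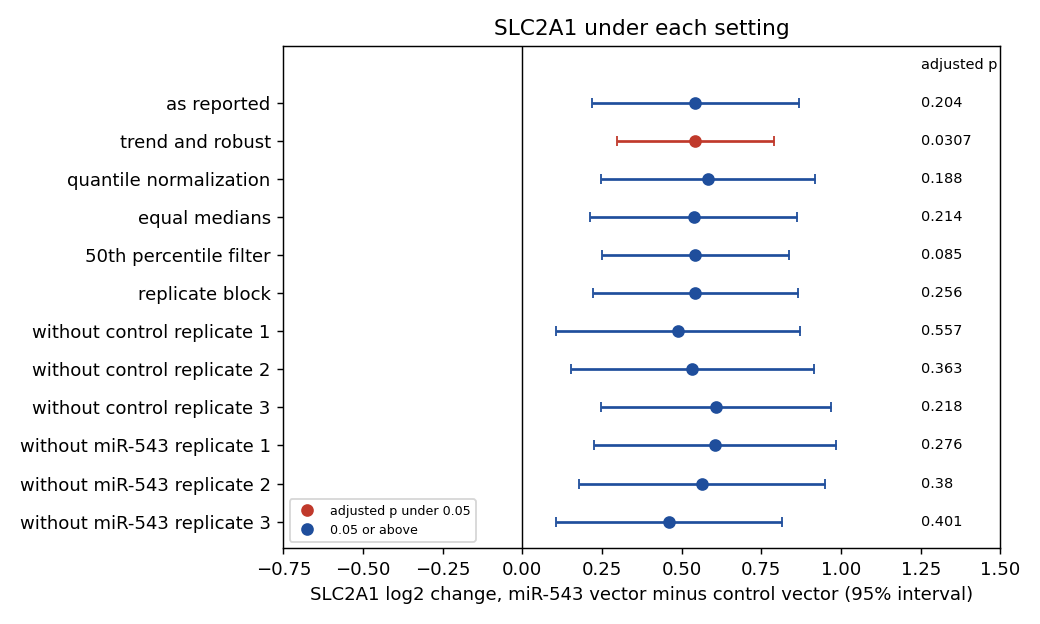
Log2 change of SLC2A1 (x axis, point, with 95% interval as the bar) as reported and under 11 other settings, with the adjusted p of the limma fit printed at the right. The estimate stays between 0.46 and 0.61, and only the trend and robust setting (red) brings the adjusted p under 0.05 (0.0307).

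The difference of SLC2A1 kept its sign in all 11 other settings, with log2 changes of 0.46 (without miR-543 replicate 3) to 0.61 (without control replicate 3). Its adjusted p in these limma fits ranged from 0.0307 to 0.557. The call of SLC2A1 therefore rested on how the variance was modelled. Its direction could not turn when single arrays were left out, because all 3 miR-543 arrays lay above all 3 control arrays. The trend and robust setting, the 50th percentile filter and the replicate block kept the estimate at 0.54, since they leave the group means as they are. Quantile normalization and equal medians, which rescale the arrays, gave 0.58 and 0.54.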

How the data were processed

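The deposited values are log2 signals per probe set, 1 column for each of 6 arrays. Per the submitters' processing notes, Transcriptome Analysis Console 4.0 and RMA were used; the RMA variant, annotation release and genome build are not given in the sources used here. Symbols came from the platform annotation (17709 probe sets with 1 symbol, 0 columns of other samples). RefSeq tables of GRCh38.p14 gave chromosomes and sequences.

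Groups followed the sample titles. All 21448 probe sets were fitted with limma 3.58.1 in R 4.3.3 (lmFit, eBayes without trend, no block, no filter), two-sided, with Benjamini-Hochberg adjustment over all of them and a threshold of 0.05. A positive change means a higher signal with miR-543. Exact permutation tests used scipy 1.17.1. Precision is limited by the number of arrays. The steps were checked on simulated data.

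The named genes were the 10 genes, the 4 genes of smallest unadjusted p in each of 5 lists, 9 isozymes or steps, and the 5 nearest profiles to SLC2A1; others quoted were chosen after their values were seen. The members and lists were chosen with earlier results of these data known. Alternatives were trend and robust settings, quantile normalization, equal medians, a filter at the 50th percentile of mean signal, a replicate block, and leaving out each array. Each gene had 1 probe set, so no other row could be tried.

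Same-numbered arrays did not deviate together (r of deviations 0.095, -0.053 and 0.018), so numbers were not taken as pairs.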

Additional observations from a re-analysis of the deposited data

How the results depend on the processing

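Of the 10 genes 0 were called in the reported fit and in 10 of the 11 other settings; the trend and robust setting called 1, SLC2A1 (log2 change 0.54, limma adjusted p = 0.0307). All probe sets called numbered 122 as reported, 252 with the trend and robust setting and 71 with the replicate block, under which SLC2A1 had an adjusted p of 0.256 by limma; the cause was not tested. Leaving out an array gave 34, 56 and 48 calls for control replicates 1 to 3 and 50, 55 and 59 for miR-543 replicates 1 to 3, fits with fewer samples. In the 5 pathway lists 0 genes were called in each setting among those tested; the 50th percentile filter left 70 of 110 list entries to test, without ENO3, SLC2A12 or SLC2A5 among others. Of the log2 changes recomputed (the 10 genes and the genes named by rule), 5 changed sign. PGK1 was 0.045 after quantile normalization and -0.0767 to 0.0433 when single arrays were left out; ALDOC was 0.0097 after quantile normalization; ENO1 ranged from -0.02 to 0.055, LDHA from -0.11 to 0.065 and PKLR from -0.2617 to 0.0983 when single arrays were left out. Without turning, FBP2 ranged from -0.49 to -0.13, SLC2A2 from 0.15 to 0.49, PFKM from -0.40 to -0.11 and SLC2A5 from -1.21 to -0.50. Other rows of a symbol were not run, since each of the 10 genes had 1. The replicate numbers are shared between groups, but only 2 of 6 arrays correlated best with their own number. No detection calls were used, so low signals such as those of ENO3, SLC2A5 and PC were not sorted into present or absent. The median of the erythroid markers, recomputed as an alternative chosen after seeing the data, was 0.245 (without control replicate 1) to 0.375 (without miR-543 replicate 3) over the 11 settings.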
